A study of Danio rerio with 6 samples.

Results

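Cytochrome c oxidase, complex IV of the mitochondrial respiratory chain, passes electrons from cytochrome c to oxygen and pumps protons across the inner membrane. Its catalytic core (mt-co1, mt-co2 and mt-co3) is encoded in the mitochondrial genome. The nuclear subunits around that core surround, stabilise and regulate it, and several of them exist as alternative isoforms encoded by separate genes. In mammals such isoforms differ by tissue or by oxygen supply, as with the hypoxia-inducible COX4I2, the heart and muscle form COX6A2 and the testis form COX6B2. The 10 genes described here encode isoforms of subunits IV (cox4i1, cox4i1l, cox4i2), Va (cox5aa, cox5ab), VIa (cox6a1, cox6a2) and VIb (cox6b1, cox6b2), and of subunit VIII (cox8a). They were taken by gene symbol from a table of 32057 genes, and all 10 were found. They were named with the difference between 6PPD and DMSO in these libraries already known. That difference is therefore given for them as a description, without a p-value. Calls and ranks are read from a fit over all genes. For these 10 genes they are a description too, also where a library is left out.

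RNA was measured by poly(A) sequencing in heads of zebrafish embryos 2 days after fertilization. Embryos of one group were exposed to 6PPD (500 µg/L), which protects tire rubber from oxidation, starting 10 hours post-fertilization (hpf). Control embryos received DMSO, the solvent. Both groups also received the pigment inhibitor PTU (0.003% from 24 hpf), and no strain or genotype is named in the labels. Each group held 3 libraries called biological replicates, and each library pooled 150 heads, so differences between single embryos are not seen. The labels name the tissue as brain, and its markers were present, with the summed level of 17 neural markers at 2824.7 to 3109.5 FPKM in DMSO and 2696.6 to 2857.9 in 6PPD. The samples were whole heads, and markers of epidermis, eye and muscle were present as well. In such mixed tissue, fewer cells of a type and less RNA per cell cannot be told apart. FPKM are fragments scaled by gene length and by the mapped fragments of the library, so levels of different genes can be compared per length. Read depth is unknown, because low values were not whole multiples of 1 fragment.

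DMSO replicate 3 stood apart from the other controls. On the first principal component (43.5% of the variance) it lay at -4.70, against -20.6 and -22.8 for the other DMSO libraries and 15.3 to 16.9 for the 6PPD libraries. The log2 fold changes of the 9 tested isoform genes are therefore also given without it where it moves them. Results for the other gene lists and for cell type markers include it, except where stated.

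In 6PPD heads the less expressed isoforms of subunits IV and VIb were higher, while the main isoforms of these subunits, cox4i1 and cox6b2, had log2 fold changes of -0.12 and -0.14 and were not called. The genes cox4i1l, cox4i2 and cox6b1 had log2 fold changes of 1.37, 0.58 and 0.59 and were called higher. The other 6 tested isoform genes were not called and lay between -0.29 and 0.05. The summed level of the isoforms of each subunit overlapped between the groups, although for subunit Va it did so only through DMSO replicate 3. The shares of cox4i1l, cox4i2 and cox6b1 within their subunits did not overlap between the groups.

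Of the 10 genes, 9 had a mean of at least 1 FPKM and entered the fit, and cox6a2 did not. A gene was called where limma gave a Benjamini-Hochberg adjusted p under 0.05 over the 15320 genes tested. By this rule 3 of the 9 genes were called, all of them higher, against 3.41% of all tested genes called in either direction and 2.26% called higher and 1.15% called lower. Because the genes were chosen on this contrast, nothing is read from that share. The 3 called genes were also those whose groups did not overlap, as in 26.3% of all tested genes (17.1% with 6PPD higher). The median log2 fold change of the 9 genes was -0.12, and that of all tested genes 0.06. All log2 fold changes are on log2(FPKM + 1), which understates the change of low genes, and are given with the moderated standard error (SE) of limma. No p-value over the 3 libraries of each group is given for the isoform genes.

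**Figure D1:**
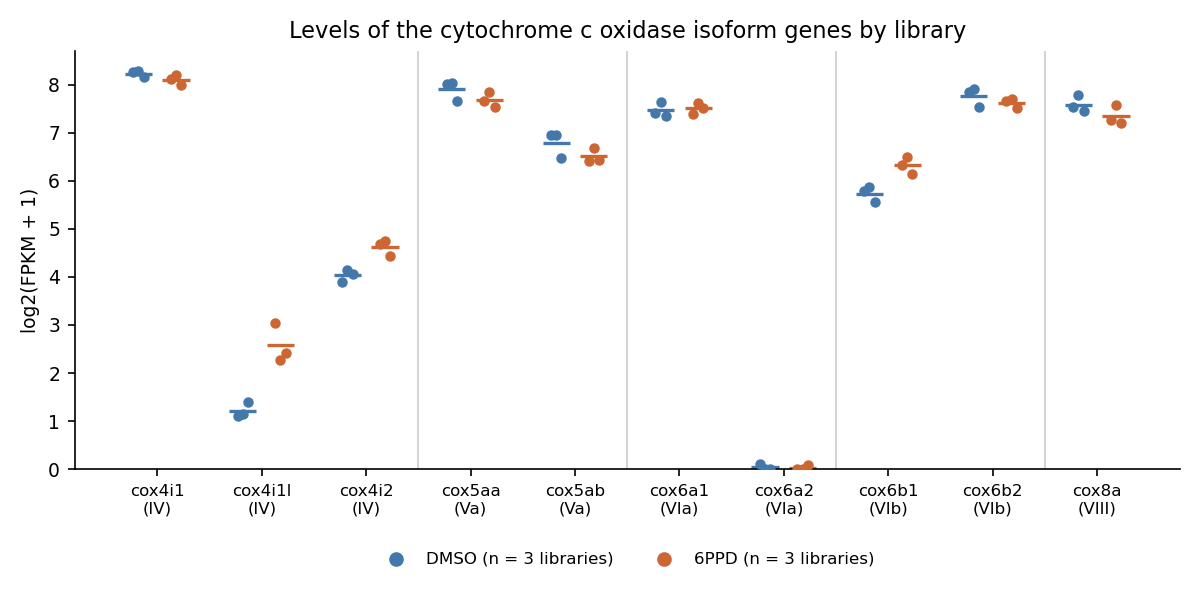
Level of each isoform gene as log2(FPKM + 1), with the subunit in brackets. Points are libraries (replicates 1 to 3 from left to right in each group) and bars are group means of the plotted values (n = 3). The 6PPD points of cox4i1l, cox4i2 and cox6b1 lie above their DMSO points, the groups of the other genes overlap, and cox6a2 lies at or near 0.

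In DMSO the order of the levels began with cox4i1 (299.5 ± 15 FPKM, SD, n = 3). It was followed by cox5aa (241 ± 34.3), cox6b2 (218 ± 29.6), cox8a (192 ± 23) and cox6a1 (176 ± 18.6), and neighbours among these 4 overlapped. Below them came cox5ab (111 ± 19.8), cox6b1 (52.4 ± 5.69), cox4i2 (15.5 ± 1.43) and cox4i1l (1.33 ± 0.256), each clear of its neighbours. In 6PPD cox6a1 (181 ± 14.9) stood above cox8a (163 ± 24), although the libraries of these genes overlapped. There cox6b1 (79.4 ± 9.56) came up to cox5ab (90.1 ± 9.23), so that these neighbours overlapped in 6PPD and not in DMSO.

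Subunit IV is an early-assembled subunit that binds adenine nucleotides and through which the ATP level slows the enzyme. Its main isoform gene cox4i1 (ENSDARG00000032970, chromosome 18, 30507839 to 30510241, plus strand, GRCz11) read 304, 312 and 283 FPKM in DMSO replicates 1 to 3 and 275, 294 and 255 FPKM in 6PPD replicates 1 to 3. The groups overlapped through DMSO replicate 3 and 6PPD replicate 2. The log2 fold change of cox4i1 was -0.12 ± 0.09, with a 95% interval of -0.33 to 0.08, and -0.17 without DMSO replicate 3.

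The gene cox4i2 (ENSDARG00000022509, chromosome 23, 18944388 to 18951148, plus strand) encodes the other long-known subunit IV isoform. In mammals it is induced by low oxygen and makes the enzyme less sensitive to inhibition by ATP. It read 13.9, 16.7 and 15.8 FPKM in DMSO and 24.6, 25.8 and 20.5 FPKM in 6PPD, replicates 1 to 3 in each case. Each 6PPD library lay above each DMSO library, and the lowest 6PPD value was that of replicate 3. The mean was 1.53 times that of DMSO, and the log2 fold change was 0.58 ± 0.11. It stayed positive with each library left out (0.51 to 0.67). The call was lost without DMSO replicate 1 (0.51), DMSO replicate 2 (0.63), 6PPD replicate 1 (0.55) or 6PPD replicate 2 (0.51), and it held without DMSO replicate 3 (0.59).

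The gene cox4i1l (ENSDARG00000012388, chromosome 24, 28231602 to 28245872, minus strand) is annotated as a further gene like cox4i1. It read 1.14, 1.23 and 1.62 FPKM in DMSO and 7.18, 3.86 and 4.37 FPKM in 6PPD. The groups were wide apart, and 6PPD replicate 1 stood above the other 6PPD libraries. The mean was 3.86 times that of DMSO. The log2 fold change was 1.37 ± 0.20, the rank 10 rise among the 15320 genes tested. It was called with each library left out (1.14 to 1.51, and 1.45 without DMSO replicate 3). The lowest value was that without 6PPD replicate 1. Levels this low rest on few fragments, and the number of fragments is not known.

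Within a library the ratio of 2 genes does not depend on how libraries were scaled to each other. The level of cox4i1 was 21.9, 18.6 and 17.9 times that of cox4i2 in DMSO and 11.2, 11.4 and 12.5 times in 6PPD. It was 268, 253 and 175 times that of cox4i1l in DMSO and 38.4, 76.2 and 58.4 times in 6PPD. Both ratios were lower in each 6PPD library than in any DMSO library. Of the summed FPKM of the 3 genes, cox4i2 held 4.90% ± 0.474 (SD, n = 3) in DMSO and 7.76% ± 0.393 in 6PPD. The share of cox4i1l was 0.423% ± 0.101 in DMSO and 1.70% ± 0.585 in 6PPD, and cox4i1 kept 94.7% ± 0.552 and 90.5% ± 0.775. The sum itself was 316 ± 15 FPKM in DMSO and 304 ± 22.1 in 6PPD, and its groups overlapped.

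Subunit VIb faces the intermembrane space and holds the 2 monomers of the dimeric enzyme together. The gene cox6b2 (ENSDARG00000037860, chromosome 16, 12504929 to 12512593, minus strand) was the main isoform in these heads, although the mammalian gene of that name is largely a testis gene. It read 229, 239.9 and 184 FPKM in DMSO and 200.4, 208 and 181 in 6PPD, with overlapping groups and a log2 fold change of -0.14 ± 0.11. Without DMSO replicate 3 the change of cox6b2 was -0.26, and it was not called. The gene cox6b1 (ENSDARG00000045230, chromosome 24, 39606053 to 39610585, minus strand), whose mammalian counterpart is the general isoform, read 54.1, 57.1 and 46.1 FPKM in DMSO and 79.6, 88.8 and 69.7 in 6PPD. The lowest 6PPD library was above the highest DMSO library. The mean was 1.51 times that of DMSO and the log2 fold change was 0.59 ± 0.11. The call of cox6b1 was lost without DMSO replicate 2 (0.65), 6PPD replicate 1 (0.58) or 6PPD replicate 2 (0.50), and also after median-ratio scaling of the libraries (0.52). It held without DMSO replicate 3 (0.50).

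The level of cox6b2 was 4.23, 4.20 and 3.99 times that of cox6b1 in DMSO and 2.52, 2.34 and 2.59 times in 6PPD. The mean ratio was 4.14 ± 0.131 (SD, n = 3) in DMSO and 2.48 ± 0.130 in 6PPD. The share of cox6b1 was thus 19.5% ± 0.502 in DMSO and 28.7% ± 1.09 in 6PPD, 9.27 percentage points higher, and 8.66 to 9.73 points with each library left out. The table gives cox6b2 a length of 1583 bases and cox6b1 633 bases. With FPKM multiplied by these lengths, the share of cox6b1 was 8.81% ± 0.258 in DMSO and 13.9% ± 0.639 in 6PPD. Fragments themselves were not available. The sum of both genes was 270.0 ± 35.3 FPKM in DMSO and 276 ± 23.4 in 6PPD, and the groups overlapped.

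**Figure D2:**
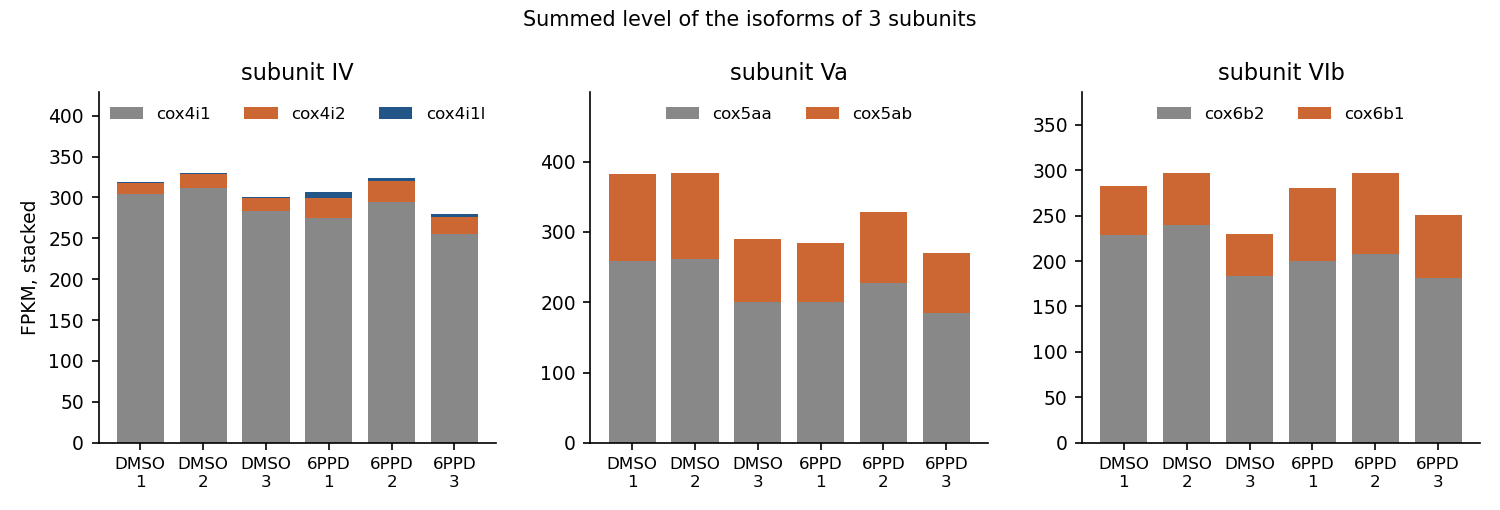
FPKM of the isoform genes of subunits IV, Va and VIb stacked for each library (x axis, group and replicate). Bar heights overlap between DMSO and 6PPD in the 3 subunits, while the upper parts (cox4i2 with cox4i1l, and cox6b1) take more of the 6PPD bars. For subunit Va the heights overlap only through DMSO replicate 3. The parts of cox5aa and cox5ab keep their proportion.

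Subunit Va lies on the matrix side, where in mammals it binds a thyroid hormone metabolite. Its zebrafish genes are cox5aa (ENSDARG00000088383, chromosome 25, 29075145 to 29080125, minus strand) and cox5ab (ENSDARG00000099663, chromosome 18, 808911 to 812753, plus strand). The first read 259, 262 and 201 FPKM in DMSO and 200.2, 228 and 184 in 6PPD. The second read 123, 122 and 88.3 FPKM in DMSO and 84.0, 101 and 85.5 in 6PPD. In both genes DMSO replicate 3 lay with the 6PPD libraries, so the groups overlapped. The log2 fold changes were -0.23 ± 0.12 and -0.29 ± 0.13. Without DMSO replicate 3 they were -0.36 and -0.45, and cox5ab was then called lower and cox5aa was not.

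The ratio of cox5aa to cox5ab was 2.11, 2.14 and 2.28 in DMSO and 2.38, 2.27 and 2.15 in 6PPD. These values overlapped, and the share of cox5ab was 31.5% ± 0.883 and 30.6% ± 1.11. The difference in that share ran from -1.41 to -0.306 percentage points with each library left out. The sum of both genes was 352 ± 54.1 FPKM in DMSO and 294 ± 31.1 in 6PPD. Its groups overlapped only through DMSO replicate 3, at 289.6 FPKM. The sum was 382 and 384 FPKM in DMSO replicates 1 and 2, and 284, 329 and 269 FPKM in 6PPD.

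Subunit VIa takes part in the regulation of proton pumping by nucleotides. The gene cox6a1 (ENSDARG00000022438, chromosome 8, 39760258 to 39765996, plus strand) encodes the form that in mammals is called the liver type. It read 169, 197 and 162 FPKM in DMSO and 166, 196 and 183 in 6PPD, and the groups overlapped. The log2 fold change was 0.05 ± 0.10, with a 95% interval of -0.18 to 0.27, and its sign turned after median-ratio scaling (-0.02), without DMSO replicate 3 (-0.01) and without 6PPD replicate 2 (-0.01).

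The gene cox6a2 (ENSDARG00000054588, chromosome 3, 31039923 to 31042102, plus strand) carries the name of the mammalian heart and muscle form, while the Ensembl symbol table used here gives its ID the symbol COX6A1. It was listed at 0.0809 FPKM in DMSO replicate 1 and at 0.0691 FPKM in 6PPD replicate 3, and at 0 in the remaining 4 libraries. The same libraries carried muscle RNA. Of 29 tested skeletal muscle entries, 22 had a negative log2 fold change. Those with the smallest p were the myosin heavy chain gene myhz2, at 12.3 ± 2.01 FPKM in DMSO and 7.93 ± 1.08 in 6PPD (adjusted p = 0.0509 in limma), and the skeletal actin gene acta1a, at 25.5 ± 5.26 and 32.8 ± 1.45 FPKM (adjusted p = 0.15 in limma). The summed level of the skeletal muscle list was 662 to 711 FPKM in DMSO and 516 to 782 in 6PPD. Subunit VIa was thus represented almost wholly by cox6a1 in both groups.

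Subunit VIII is one of the smallest nuclear subunits, and cox8a (ENSDARG00000095273, chromosome 21, 28496194 to 28500704, plus strand) is the general isoform in mammals. It read 185, 218 and 173 FPKM in DMSO and 152, 190.4 and 146 in 6PPD. The groups overlapped through 6PPD replicate 2, and the log2 fold change was -0.24 ± 0.12 (-0.31 without DMSO replicate 3, not called). The other gene of this subunit, cox8b, which in many mammals is the heart and muscle form, read 1.11, 0.601 and 0.43 FPKM in DMSO and 2.16, 1.45 and 1.31 in 6PPD. Its 6PPD libraries lay above its DMSO libraries, but it was not called (log2 fold change 0.63 ± 0.19, limma adjusted p = 0.106). With means of 0.715 FPKM in DMSO and 1.64 in 6PPD, it passed the filter only through its 6PPD level. Its share of the subunit was 0.373% ± 0.195 in DMSO and 1.01% ± 0.339 in 6PPD.

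**Figure D3:**
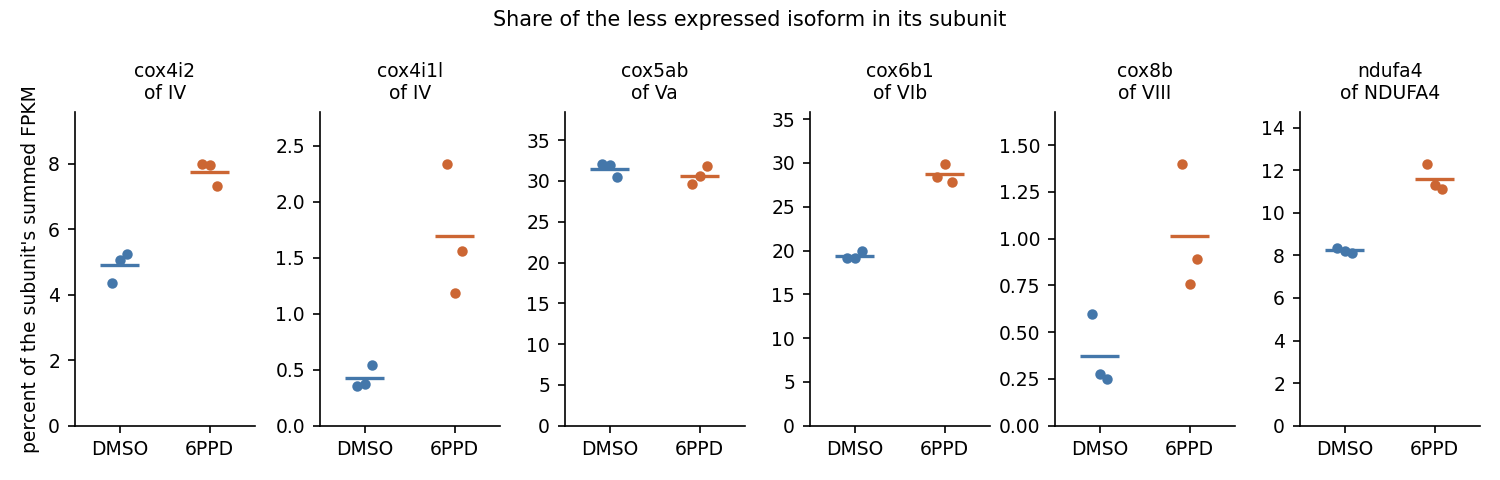
Percent of a subunit's summed FPKM held by a less expressed isoform gene, for each library (points, replicates 1 to 3 from left to right) with the group mean (bar, n = 3). Each panel has its own linear scale from 0. The less expressed isoforms cox7a1, cox6a2, ndufa4l2a and ndufa4l2b are not drawn. Of these only the share of cox7a1 did not overlap between the groups. The 6PPD points lie above the DMSO points for cox4i2, cox4i1l, cox6b1, cox8b and ndufa4, and the groups overlap for cox5ab.

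The remaining subunit genes gave the setting for these differences. Of 12 further nuclear subunit genes matched in the table, 9 were tested, 1 was called higher and 0 lower by limma (2 higher and 0 lower at an unadjusted p under 0.05). Their median log2 fold change was -0.12. Over all tested genes 2.26% were called higher. The called gene was ndufa4, whose mammalian product was first assigned to complex I and is now counted with complex IV. It read 23.4, 24.1 and 19.5 FPKM in DMSO and 32.9, 33.1 and 27.6 in 6PPD, and the log2 fold change was 0.47 ± 0.11 (adjusted p = 0.0481 in limma). The call of ndufa4 was lost with any of the 6 libraries left out, where the change was 0.38 to 0.55. Its more highly expressed paralogue ndufa4l was at 246 ± 24.7 FPKM in DMSO and 236 ± 19.8 in 6PPD (log2 fold change -0.06 ± 0.10, limma adjusted p = 0.76). The share of ndufa4 among the 4 ndufa4-type genes was 8.23% ± 0.118 in DMSO and 11.6% ± 0.653 in 6PPD.

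Over 7 groups of isoform genes (the 4 pairs and trios above, cox8a with cox8b, cox7a1 with cox7a2a, and the ndufa4 genes) there were 10 less expressed isoforms. The share of 6 of them was higher in each 6PPD library than in any DMSO library, and the share of the other 4 overlapped. Among the 10 genes chosen on this contrast they were cox4i1l, cox4i2 and cox6b1, of 5 less expressed isoforms. Because of that choice nothing is read from these 3. Outside the 10 genes they were cox8b, cox7a1 and ndufa4, also of 5. Here cox8b passed the filter only through its 6PPD level (means of 0.715 FPKM in DMSO and 1.64 in 6PPD), and nothing is read from its share. The grouping of the genes outside the 10 was made after their values were seen, so this count is a description. The tested gene cox7a2l was not placed in the group of cox7a1 and cox7a2a, and the count depends on such choices. It was at 46.9 ± 3.15 FPKM in DMSO and 46.4 ± 4.69 in 6PPD, with overlapping groups (log2 fold change -0.02 ± 0.09, not called). By level, 17.1% of all tested genes had each 6PPD library above each DMSO library, and no such share was computed for isoform groups in general. The gene cox7a1, in mammals the heart and muscle form of subunit VIIa, was below the filter at 0.281, 0 and 0.205 FPKM in DMSO and 0.347, 0.711 and 0.612 in 6PPD. The tested subunit genes with no such partner in this table, cox6c, cox7b and cox7c, were not called. Their log2 fold changes were -0.17, -0.16 and -0.24 (limma adjusted p = 0.463, 0.612 and 0.374). Of subunit Vb only cox5b2 was matched, at 0.162 FPKM in DMSO and 0.344 in 6PPD, and it was not tested. The listed symbols cox5ba and cox5bb were not found, so subunit Vb is not covered by these results.

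**Figure D4:**
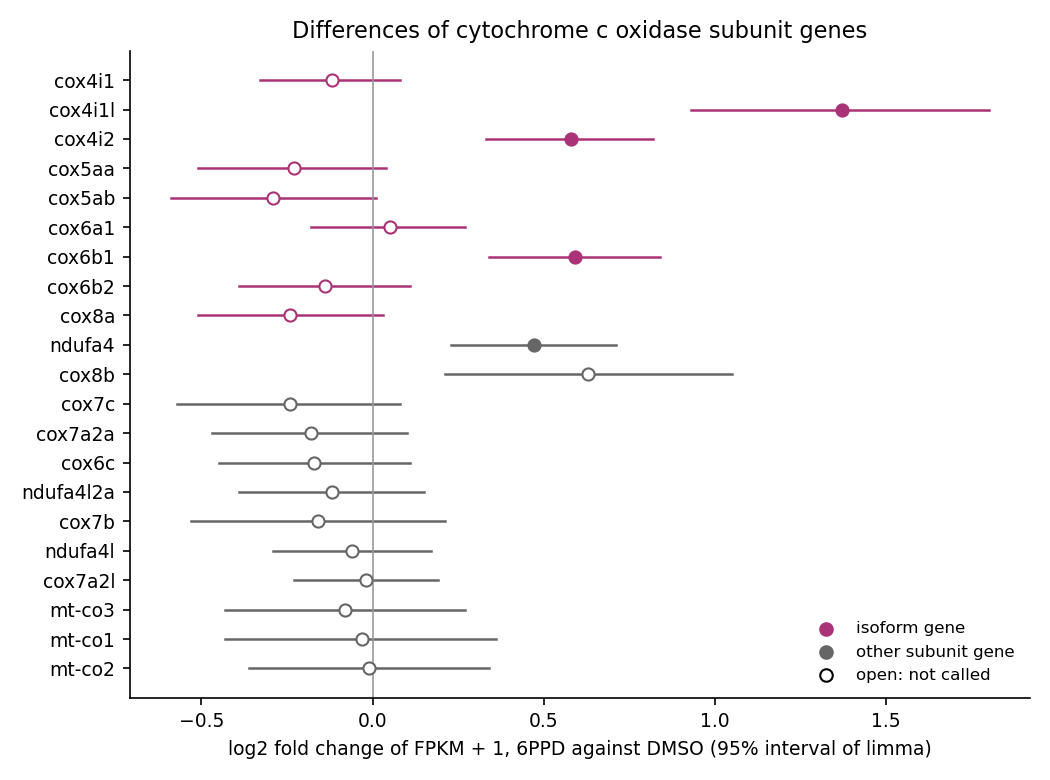
Log2 fold change of FPKM + 1, 6PPD against DMSO, with the 95% interval of limma, for the tested isoform genes and the other tested subunit genes of the enzyme. Filled points were called at an adjusted p under 0.05: cox4i1l, cox4i2, cox6b1 and ndufa4, all of them higher in 6PPD.

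The catalytic subunits of the mitochondrial genome were not called. The log2 fold changes were -0.03 ± 0.18 for mt-co1, -0.01 ± 0.16 for mt-co2 and -0.08 ± 0.16 for mt-co3. By limma 0 of the 3 passed the threshold, and 0 had an unadjusted p under 0.05. The 95% intervals reached from -0.43 to 0.36 for mt-co1, so differences of that size cannot be told from none in these libraries. Cytochrome c, the electron donor, is encoded by cycsb, whose log2 fold change was -0.11 by limma (adjusted p = 0.526), and cycsa was listed at 0 in the 6 libraries.

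Among 27 tested genes for assembly of the enzyme, its copper supply and its heme, 1 was called lower and 0 higher. At an unadjusted p under 0.05, 5 were lower and 0 higher, and the median log2 fold change was -0.07. Over all tested genes 3.41% were called in either direction, and 1 call in a list of this length is near that share. The called gene was sco1, a copper chaperone for the catalytic subunit encoded by mt-co2. It read 17.8, 17.5 and 17 FPKM in DMSO and 11.9, 12.9 and 14 in 6PPD (log2 fold change -0.41 ± 0.09, limma adjusted p = 0.0414). The call of sco1 was lost when any library other than DMSO replicate 3 was left out, with changes of -0.46 to -0.35 over the 6 omissions. The gene lrpprc, which stabilises mitochondrial messenger RNAs, was at 21.2 ± 1.02 FPKM in DMSO and 16.7 ± 1.04 in 6PPD (log2 fold change -0.33 ± 0.09, limma adjusted p = 0.0728).

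Genes tied in mammals to the choice of subunit IV isoform were not called, against 3.41% of all tested genes called in either direction. In a list this short 0 calls is near that share, and only RNA was measured. Of 11 tested genes for hypoxia-inducible factors and factors like them, the protease Lon and the factors acting at the COX4I2 promoter, limma called 0, and 1 was higher and 1 lower at an unadjusted p under 0.05. Their median log2 fold change was 0.11. The smallest p in this list was that of cxxc5a, whose mammalian counterpart represses COX4I2. It was at 34.8 ± 1.32 FPKM in DMSO and 44.5 ± 6.59 in 6PPD (log2 fold change 0.34 ± 0.10, limma adjusted p = 0.117). The gene chchd2, in mammals an activator at the same promoter, was at 49.9 ± 3.4 and 43.3 ± 2.89 FPKM (-0.20 ± 0.09, limma adjusted p = 0.223).

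Of 20 entries for general mitochondrial content, 1 was called lower and 0 higher, with a median log2 fold change of -0.07. Here too 1 call is near the 3.41% of all tested genes called in either direction. The called gene was nrf1, a transcription factor for nuclear genes of the respiratory chain. It was at 31.4 ± 1.77 FPKM in DMSO and 23.4 ± 0.966 in 6PPD (log2 fold change -0.41 ± 0.08, limma adjusted p = 0.0276). The coactivator gene ppargc1a, known for promoting mitochondrial biogenesis, was at 1.49 ± 0.344 and 2.73 ± 0.308 FPKM (0.59 ± 0.14, limma adjusted p = 0.0604).

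Markers of cell types that could carry the isoforms were measured in the same libraries, where 3.41% of all tested genes were called in either direction. In mouse brain Cox4i2 is a marker of pericytes. Of 11 tested mural cell markers limma called 0 (2 higher and 0 lower at an unadjusted p under 0.05). Among the 11, 8 had a positive and 3 a negative log2 fold change, with a median of 0.09. The summed level of the 17 matched genes was 121 to 145 FPKM in DMSO and 144 to 154 in 6PPD. None of them was at 0 throughout the 6 libraries. In DMSO most of that sum came from notch3, foxc1b and foxc1a (32.9, 29.2 and 26.7 FPKM). For the endosialin gene cd248a and the pericyte receptor gene pdgfrb the log2 fold change was 0.27 ± 0.10 and 0.43 ± 0.18, with adjusted p = 0.165 and 0.228 in limma. The 3 negative ones were ndufa4l2a (-0.12), abcc9 (-0.07) and cspg4 (-0.01). Markers of ionocytes, skin cells rich in mitochondria, summed to 231 to 239.5 FPKM in DMSO and 218 to 233 in 6PPD. In DMSO most of that sum came from atp1a1a.1 (122 FPKM) and atp6v1aa (90.7 FPKM). The markers foxi3b and gcm2 were at 1.52 and 1.15 FPKM in DMSO, so the sum says little about them. Of the 9 tested, 3 had a positive and 6 a negative log2 fold change, with a median of -0.08. Only 1 was called, the chloride channel gene clcn2c, which was higher (log2 fold change 0.89 ± 0.16, limma adjusted p = 0.0176). Its mean was 0.465 FPKM in DMSO and 1.69 in 6PPD. It thus passed the filter only through its 6PPD level, and nothing is read from its call. Of 29 skeletal and 7 cardiac muscle entries limma called 0, with median log2 fold changes of -0.14 and -0.17. At an unadjusted p under 0.05, 1 skeletal muscle entry was higher and 3 lower, and 0 cardiac ones.

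Some markers of neurons, eye and skin were also called, where 2.26% of all tested genes were called higher and 1.15% lower. Among 17 neural markers 2 were called higher, the neuronal RNA-binding protein gene elavl3 (0.64 ± 0.13, limma adjusted p = 0.0324) and the synaptic gene snap25a (0.40 ± 0.08, limma adjusted p = 0.0328). At an unadjusted p under 0.05, 4 neural markers were higher and 2 lower, the latter gfap (-0.50) and fabp7a (-0.33). Of the 17, 9 had a positive and 8 a negative log2 fold change, and the median of this list was 0.00. The paralogues of the called genes, elavl4 (-0.34) and snap25b (-0.23), were not called. Among 11 photoreceptor and lens markers 3 were called lower and 0 higher (6 lower and 1 higher at an unadjusted p under 0.05), 10 had a negative log2 fold change and the median was -0.61. The called genes were the photoreceptor genes rho (-1.01), opn1sw1 (-1.98) and gnat1 (-0.75). In DMSO opn1sw1 read 3.2, 5.45 and 14 FPKM, highest in replicate 3. The lens crystallin genes cryaa (0.53), cryba1b (-0.01) and crygm2d1 (-0.03) were not called. Among 15 epidermal markers 3 were called lower and 0 higher (10 lower and 1 higher at an unadjusted p under 0.05), 14 had a negative log2 fold change and the median was -0.46. Summed epidermal markers ran from 4185.1 to 6973.7 FPKM in DMSO and from 3459.1 to 3928.4 in 6PPD. The largest part of that sum was krt4, at 2899.9 ± 947 FPKM in DMSO and 2002.8 ± 220.5 in 6PPD, which was not called. In DMSO krt4 read 3979.7, 2510.7 and 2209.3 FPKM, highest in replicate 1. The part of these cell types in the isoform differences was not tested.

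The called isoform genes did not share a neighbourhood. On chromosome 24 cox4i1l and cox6b1 lie far apart. The genes flanking cox4i1l in the table, bcl2a and prkag2a, had log2 fold changes of 0.14 and 0.07. The genes flanking cox4i2 were si:ch211-209j10.6 (0.20) and bcl2l1 (0.19), and those flanking cox6b1 were si:dkey-161j23.7 (0.32) and BX547934.2 (0.48). None of these 6 neighbours was called. No gene of the table overlapped cox4i1l, cox4i2 or cox6b1. The genes overlapping cox6a1 and cox8a were on the opposite strand and at mean levels of at most 0.28 FPKM. Fragments may be divided between isoform genes of similar sequence, and the similarity of their transcripts was not examined.

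The genes whose levels over the 6 libraries were most like that of cox4i1l, by Pearson correlation of log2(FPKM + 1), were sgpp1, psmc3ip, knstrn, hes2.2 and selenow2b (r = 0.990 to 0.992). Those most like cox4i2 were ctdspla (r = 0.999), brinp3a.2 (0.996), adob (0.993), the mitochondrial superoxide dismutase gene sod2 (0.993) and the thioredoxin gene txn (0.992). The level of sod2 was 23.9 FPKM in DMSO and 27.8 in 6PPD, and that of txn 16.2 and 26.3. These are the highest of 13256 correlations over 6 libraries that also carry the treatment difference, so they serve as a description.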

How the data were processed

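Poly(A) RNA from 150 pooled heads per library was sequenced in 3 DMSO and 3 6PPD libraries, grouped by the treatment in the labels. The authors deposited FPKM per gene. Tools named without version or role are HISAT2, StringTie, featureCounts and fastp, and the build is GRCz11, per the submitters' processing notes. The libraries were made strand-specific, per the labels' protocols, and the strand setting of the counting is not stated in the sources at hand. Low FPKM were tested for steps of 1 fragment. At the best step 26.4% to 28.7% of values lay within 0.1 step of a whole multiple, where an arbitrary step gives 20%, so no count model was used.

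The 15320 genes whose FPKM averaged 1 or more entered a limma fit of log2(FPKM + 1) (limma 3.58.1, R 4.3.3, intensity trend, residual degrees of freedom 4), with Benjamini-Hochberg adjustment over the genes tested. The procedure was tested on simulated data. The simulation drew independent noise with the variances of the same fit, so it does not cover an outlying library or low fragment numbers. The 10 genes, the 13 gene lists and the tests were chosen with earlier results of these data known. Of 217 list entries 199 matched a symbol. Named genes were drawn from the 10 genes, the nuclear subunit genes, the genes with the smallest p of each list (4 where at least 3 were called, otherwise 2, or the whole of a list of at most 4), and the 5 genes most correlated with cox4i1l and with cox4i2. Neighbours in the genome, cycsa, cox5b2, and the neural, epidermal, mural, ionocyte and lens markers with larger p were named after their values were seen. Alternatives were the pseudocount, the filter, scaling, the trend, a replicate block and leaving out each library. Gene sequences were not used here. The labels call the replicates biological, and p-values measure the spread between these pools.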

Additional observations from a re-analysis of the deposited data

How the results depend on the processing

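Over 16 alternatives (15 for cox4i1l, which a filter at a mean of 5 FPKM removes), cox4i1l, cox4i2 and cox6b1 kept a positive log2 fold change, at 1.14 to 1.84, 0.51 to 0.67 and 0.50 to 0.68. With no filter on low values none of the 3 was called (1.37, 0.58 and 0.59), and 13 genes of the whole table were called higher and 13 lower, with 26983 genes tested. Without the intensity trend cox4i2 (0.58) and cox6b1 (0.59) lost the call and 214 genes were called higher. Median-ratio scaling ended the call of cox6b1 (0.52), which held without DMSO replicate 3 (0.50). The sign of cox6a1 turned after median-ratio scaling (-0.02) and without DMSO replicate 3 or 6PPD replicate 2 (-0.01 each). The range for cox6a1 was -0.01 to 0.13 with each library left out. With each library left out the change was 1.14 to 1.51 for cox4i1l, 0.51 to 0.67 for cox4i2 and 0.50 to 0.68 for cox6b1. Over all genes 85 (without 6PPD replicate 1) to 805 (without DMSO replicate 3) were then called higher and 72 (without 6PPD replicate 3) to 325 (without DMSO replicate 3) lower, against 346 and 176. The split of 346 to 176 was 399 to 132 after TPM scaling, 234 to 229 after median-ratio scaling, 291 to 259 after quantile normalization and 267 to 251 after cyclic loess. The median of all tested genes was 0.12 after TPM scaling and 0.00 after cyclic loess.

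With FPKM multiplied by gene length, the share of cox4i2 differed by 3.71 percentage points (2.87 by FPKM) and that of cox6b1 by 5.07 (9.27 by FPKM), because the genes differ in length. Of the other genes of the enzyme, 1 was called higher and 1 lower. The count called higher was 0 with a pseudocount of 0.1, no filter, median-ratio scaling, quantile normalization, cyclic loess or no trend, and 0 with each library left out. The count called lower was 0 with no filter, TPM scaling, no trend or the replicate block, 2 after median-ratio scaling, quantile normalization and cyclic loess, and 0 to 1 with each library left out. Except where stated, the cause was not tested.

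Replicate numbers were not used to pair the samples in the main fit. Deviations from the group means correlated at 0.03, 0.18 and -0.03 between same-numbered libraries. Only those of replicate 2 correlated best with their own number. Correlations over all genes cannot settle whether the libraries were paired, or whether single genes vary together by replicate. With the replicate block 281 genes were called higher and 174 lower, and cox4i1l (1.37), cox4i2 (0.58) and cox6b1 (0.59) stayed called. Their SE was 0.19, 0.10 and 0.08 with the block, against 0.20, 0.11 and 0.11 in the main fit. Depth is unknown, which limits what can be said of cox4i1l, cox8b, cox7a1 and cox6a2.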
